A study of Mus musculus with 1019 samples.

Results

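Foxp3, the 4 Ikaros-family genes Ikzf1, Ikzf2, Ikzf3 and Ikzf4, and the 3 chains of the interleukin-2 (IL-2) receptor, Il2ra, Il2rb and Il2rg, were followed in single regulatory T cells (Tregs) from visceral adipose tissue (VAT) and spleen. The 8 genes were chosen by name, by a rule that uses no measured value, though with earlier results of these data known, and they are 8 of the 23725 genes in the table of unique molecular identifiers (UMIs), in which each UMI tags 1 mRNA molecule at its 3′ end. All 8 had UMIs in every library. With 50 UMIs over the 3 libraries required for a call, 7 of the 8 were eligible, and Ikzf4, with 39 UMIs, was not.

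The cells were profiled by inDrops, a droplet method for single-cell RNA sequencing. Of the 1019 cells, 32.4% were in VAT library 2 and 30.8% in VAT library 3, both from epididymal VAT, and 36.8% were in the spleen library. All came from male B6 mice aged 20 months, with no transgene or treatment named in the labels, and all were sorted as DAPI-negative cells carrying TCRb, CD4 and CD25. The VAT tissue was broken up with the enzymes collagenase and dispase and the spleen by mechanical means, so tissue and dissociation cannot be told apart. The labels named no animal, cells are not replicates, and spleen had 1 library, so a library counts here as 1 sample, and the values are given without tests or p-values. The spleen labels disagreed among themselves: the source was spleen, the tissue field named spleen together with visceral adipose, and the replicate numbers in the title and in the sample type differed. The title of the series speaks of FoxP3-negative conventional T cells as well, but the labels of these cells describe only the CD25+ sort.

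As background, FOXP3 is the transcription factor that defines Tregs. The alpha chain of the IL-2 receptor (Il2ra, the CD25 protein used in the sort), the beta chain (Il2rb) and the common gamma chain (Il2rg) form the high-affinity receptor, and the beta and gamma chains signal through JAK1, JAK3 and STAT5, which helps to maintain Foxp3 expression. Ikaros (Ikzf1), Helios (Ikzf2), Aiolos (Ikzf3) and Eos (Ikzf4) are zinc-finger transcription factors of lymphocytes, of which Helios and Eos are known for their high expression in Tregs. Since the sort selected on the protein of Il2ra, every level of Il2ra below is a level among cells that passed a CD25 gate, and where that gate lay in each tissue was not stated in the labels.

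The libraries were close in depth, with 556099 UMIs in VAT library 2, 548770 in VAT library 3 and 573622 in spleen, and medians of 1565, 1611 and 1423 UMIs per cell. Levels are given as CPM, the UMIs of a gene scaled to the same total in each library, where 1 UMI equals 1.80 CPM in VAT library 2, 1.82 CPM in VAT library 3 and 1.74 CPM in spleen. At these depths a count of 0 (an upper limit of 3 UMIs) allows up to 5.39, 5.47 and 5.23 CPM. T cell markers (6 of the 9 listed genes were in the table) had 1317 and 1086 UMIs in the VAT libraries and 1910 in spleen. B cell markers summed to 9, 13 and 21 UMIs, of which Cd22 had 9, 12 and 20 and Cd79a 0 in every library, and the 10 myeloid markers together had 7, 6 and 7 UMIs. Cd8a was at 0 in every library, and Cd8b1 had 32, 30 and 28 UMIs. Markers of group 2 innate lymphoid cells summed to 47 and 36 UMIs in the VAT libraries and to 0 in spleen. Erythroid markers had 1 UMI in each VAT library (1.80 and 1.82 CPM) and 202.2 CPM in spleen, spread over 82 spleen cells, and Pecam1, an endothelial and platelet adhesion molecule, had 1, 2 and 29 UMIs. The part of these other transcripts in the results below was not tested. In a setting chosen after the data were seen, every cell with an erythroid UMI was left out. Each member's log2 ratio then stayed inside its counting interval from all cells. That setting does not take out free RNA from the cells that remain. A total of 3 cell barcodes occurred in more than 1 library.

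The members lie on 6 chromosomes of the GRCm38 (mm10) assembly by the GENCODE M21 annotation. Foxp3 spans chrX:7573644-7595245 on the plus strand and Il2rg spans chrX:101264378-101268255 on the minus strand. Ikzf1 spans chr11:11685003-11772926 (plus), Ikzf2 chr1:69531214-69687245 (minus), Ikzf3 chr11:98464902-98546031 (minus) and Ikzf4 chr10:128630843-128645991 (minus). Il2ra spans chr2:11642807-11693193 (plus) and Il2rb chr15:78479256-78495271 (minus). The annotated span of Foxp3 overlaps Ppp1r3f and Ccdc22 on the other strand, and whether the counting used strand is not given in the sources used here, so a part of the Foxp3 UMIs could come from these neighbours.

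Promoter windows from RefSeq (build GRCm38.p6, 250 bases before to 50 after the transcription start) were held for 4 of the 8 members. Shown here are the window of Il2ra, the 1 member that passed the size rule below, that of Il2rg, the chain that was higher in VAT to a smaller extent, and the 1 Foxp3 window that holds a motif of STAT factors, which carry the IL-2 signal. Capitals mark matches on either strand to 4 motifs: TTCNNNGAA of STAT factors, GTAAACA of forkhead factors, TGGGAA of Ikaros factors and TGTGGT of RUNX factors.
Il2ra, chr2:11642542-11642841, plus strand: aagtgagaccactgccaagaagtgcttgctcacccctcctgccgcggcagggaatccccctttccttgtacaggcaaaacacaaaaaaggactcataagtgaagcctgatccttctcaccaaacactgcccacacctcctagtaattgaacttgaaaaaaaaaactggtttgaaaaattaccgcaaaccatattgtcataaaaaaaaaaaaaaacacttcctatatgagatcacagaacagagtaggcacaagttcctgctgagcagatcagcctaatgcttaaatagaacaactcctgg
Il2rg, chrX:101268206-101268505, minus strand: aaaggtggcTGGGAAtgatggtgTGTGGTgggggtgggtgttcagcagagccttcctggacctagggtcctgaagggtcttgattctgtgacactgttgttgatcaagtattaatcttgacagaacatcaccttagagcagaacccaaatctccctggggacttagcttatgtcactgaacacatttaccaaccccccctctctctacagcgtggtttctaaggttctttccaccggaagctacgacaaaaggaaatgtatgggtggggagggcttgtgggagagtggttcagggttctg
Foxp3, chrX:7580233-7580532, plus strand: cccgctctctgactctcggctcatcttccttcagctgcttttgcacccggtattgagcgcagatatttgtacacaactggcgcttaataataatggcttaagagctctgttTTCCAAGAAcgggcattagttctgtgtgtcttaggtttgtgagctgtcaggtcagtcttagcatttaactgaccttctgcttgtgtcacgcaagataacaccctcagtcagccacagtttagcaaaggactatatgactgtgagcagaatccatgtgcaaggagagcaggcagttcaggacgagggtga
The Il2ra window held none of the 4 motifs, the Il2rg window held 1 Ikaros and 1 RUNX match, and the Foxp3 window held 1 STAT match. The other Foxp3 window, not shown, held 1 Ikaros match and no STAT match. An Ikzf1 window, also not shown, held 1 STAT match. Of 32544 windows of the same length across the genome, 8.33% held the STAT motif, 3.66% the forkhead motif, 25.4% the Ikaros motif and 16.7% the RUNX motif, so single matches of the Ikaros and RUNX motifs are common. A match describes letters in the window only.

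Foxp3 was present at a like level in all 3 libraries. It stood at 472.9 CPM in VAT library 2 and 344.4 CPM in VAT library 3, against 385.3 CPM in spleen. Spleen lay between the VAT libraries. Set against spleen, the fold was 1.23 for VAT library 2, with a 95% counting interval of 1.02 to 1.47, and 0.894 for VAT library 3, with one of 0.732 to 1.09. Set against VAT library 2, that of VAT library 3 was 0.728 (0.601 to 0.881). The VAT libraries thus differed more from each other than either did from spleen, and no direction could be given for the tissue. Every interval in this section reflects the counting of UMIs alone, and since the UMIs of a gene came clumped in cells (below), it understates the error.

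At these depths a Foxp3 UMI was seen in a minority of the sorted cells. It was found in 38.8% of cells of VAT library 2, 31.2% of cells of VAT library 3 and 34.7% of spleen cells. After every cell was thinned to 800 UMIs, so that depth was equal, the shares were 26.4% (exact Clopper-Pearson 95% interval 21.7 to 31.5), 17.2% (13.2 to 21.8) and 24.3% (20.0 to 28.9). A cell without a Foxp3 UMI is not thereby a cell without Foxp3: dropout is frequent at this level, and no cells of the sort were labelled as lacking the gene, so a share from free RNA could not be measured.

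**Figure D1:**
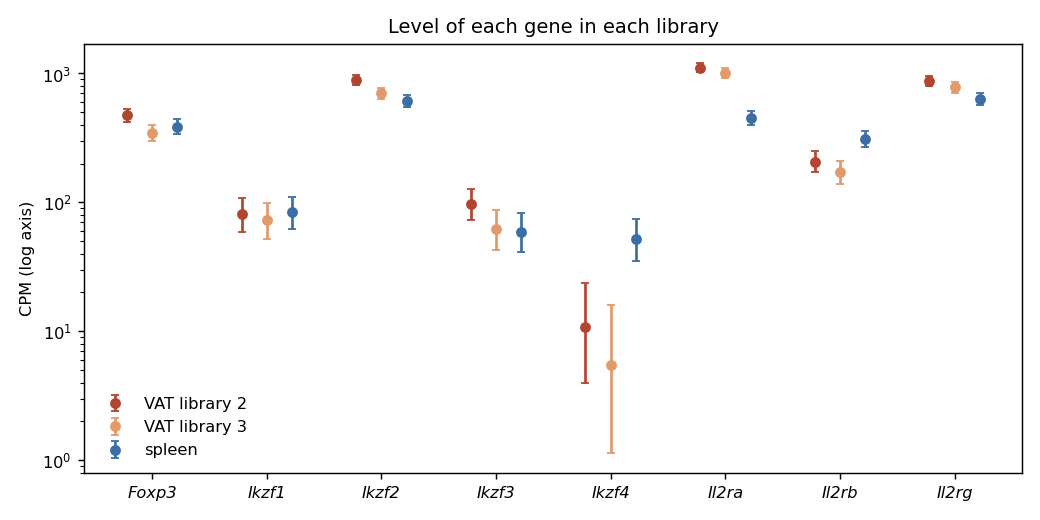
Level of each of the 8 genes in VAT library 2, VAT library 3 and spleen, in CPM on a log axis; points are library sums and bars exact Poisson 95% intervals, which cover counting error only. Il2ra stands higher in both VAT libraries (1104 and 1011 CPM) than in spleen (453.3 CPM), Il2rb and Ikzf4 stand lower, and the spleen point of Foxp3 lies between the VAT points.

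Among the Ikaros factors, Helios was the main transcript in every library and Eos was the one that differed most between tissues. Ikzf2 had 886.5 CPM in VAT library 2 and 703.4 CPM in VAT library 3, against 615.4 CPM in spleen. Both VAT libraries were above spleen, at 1.44-fold (1.25 to 1.66) and 1.14-fold (0.987 to 1.32), but VAT library 3 was 0.793-fold (0.693 to 0.908) of VAT library 2, and with totals that exclude ribosomal protein genes the log2 ratio of VAT library 3 over spleen was −0.00. The thinned share of cells with Ikzf2 was 46.1% and 37.9% in the VAT libraries and 30.7% in spleen. Before thinning the shares were 60.3% and 56.4% in VAT and 41.9% in spleen.

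Ikzf4, encoding Eos, had 6 UMIs in VAT library 2, 3 in VAT library 3 and 30 in spleen. That is 10.8 and 5.47 CPM in VAT against 52.3 CPM in spleen. It was lower by 4.85-fold in VAT library 2 (1.99 to 14.2) and by 9.57-fold in VAT library 3 (2.98 to 48.99), the widest tissue ratio of the 8 genes. The counts are small, 1 spleen cell alone held 4 of the 30 UMIs, and VAT library 3 was at the floor of 3 counts. The UMIs lay in 5, 3 and 24 cells. After thinning, 0.909% and 0.637% of VAT cells and 4% of spleen cells (2.26 to 6.51) held an Ikzf4 UMI, and the VAT and spleen intervals overlapped slightly.

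Ikzf1 and Ikzf3 were sparse in every library. Ikzf1, encoding Ikaros, had 45, 40 and 48 UMIs in VAT library 2, VAT library 3 and spleen, at 0.967-fold (0.629 to 1.48) and 0.871-fold (0.558 to 1.35) of spleen. Ikzf3, encoding Aiolos, had 54, 34 and 34 UMIs, at 1.64-fold (1.05 to 2.60) and 1.05-fold (0.630 to 1.73), and with totals that exclude ribosomal protein genes the log2 ratio of VAT library 3 was −0.13. For neither gene did both VAT libraries stand apart from spleen beyond counting error.

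Shares within the family do not depend on the library total. Of the summed UMIs of the 5 Ikaros genes, Ikzf5 (Pegasus) included, Ikzf2 made up 81.2% in VAT library 2, 81.6% in VAT library 3 and 75.1% in spleen. Ikzf4 made up 0.988% (0.364 to 2.14) and 0.634% (0.131 to 1.84) in VAT and 6.38% (4.35 to 8.99) in spleen, so the lower share of Eos in VAT did not overlap with spleen by counting error. Ikzf1, Ikzf3 and Ikzf5 together filled the remainder, with Ikzf1 at 7.41%, 8.46% and 10.2%.

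The 3 chains of the IL-2 receptor differed between tissues in opposite directions. Il2ra had 1104 CPM in VAT library 2 and 1011 CPM in VAT library 3, against 453.3 CPM in spleen. Its level was thus 2.44 times that of spleen in VAT library 2 (2.10 to 2.83) and 2.23 times in VAT library 3 (1.92 to 2.60), and the VAT libraries differed by less than counting error, at 0.916-fold (0.815 to 1.03). The most Il2ra UMIs in a single cell were 29 and 22 in VAT and 12 in spleen, and these cells held at most 4.72% of the gene's UMIs in their library. Cells with 4 or more Il2ra UMIs numbered 52 and 53 in VAT and 19 in spleen.

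Il2rb, the beta chain shared with the IL-15 receptor, went the other way. It had 206.8 CPM in VAT library 2 and 171.3 CPM in VAT library 3, against 310.3 CPM in spleen. In VAT library 2 it was 1.501-fold lower than in spleen (1.18 to 1.91), and in VAT library 3 it was 1.81-fold lower (1.40 to 2.35). Il2rg, the gamma chain shared with the receptors of IL-4, IL-7, IL-9, IL-15 and IL-21, had 881.1 and 783.6 CPM in VAT and 632.8 CPM in spleen. Its VAT levels were 1.39 times (1.21 to 1.60) and 1.24 times (1.07 to 1.43) that of spleen, a smaller difference than that of Il2ra. Over the settings run, the log2 ratio of Il2rg went from 0.48 down to 0.25 in VAT library 2 and from 0.31 down to 0.11 in VAT library 3.

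Of the 7 eligible members, 1 (Il2ra) stood 2-fold or more above spleen in each VAT library and 0 stood 2-fold or more below it in each, against 10.3% above and 4.40% below of all 4635 eligible genes. The count of 1 in 7 is near this background, so the 8 genes as a list did not stand apart. Between the VAT libraries 4.34% of eligible genes were 2-fold or more apart, and none of the 7 members was. The median log2 ratio of all eligible genes over spleen was 0.04 in VAT library 2 and −0.02 in VAT library 3. With totals that exclude ribosomal protein genes these medians were −0.18 and −0.22, 8.26% of eligible genes were above and 7.25% below by this rule, and Il2ra, at log2 ratios of 1.05 and 0.96, missed the 2-fold limit in VAT library 3. Under every scaling run, Il2ra was higher in both VAT libraries than in spleen.

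**Figure D2:**
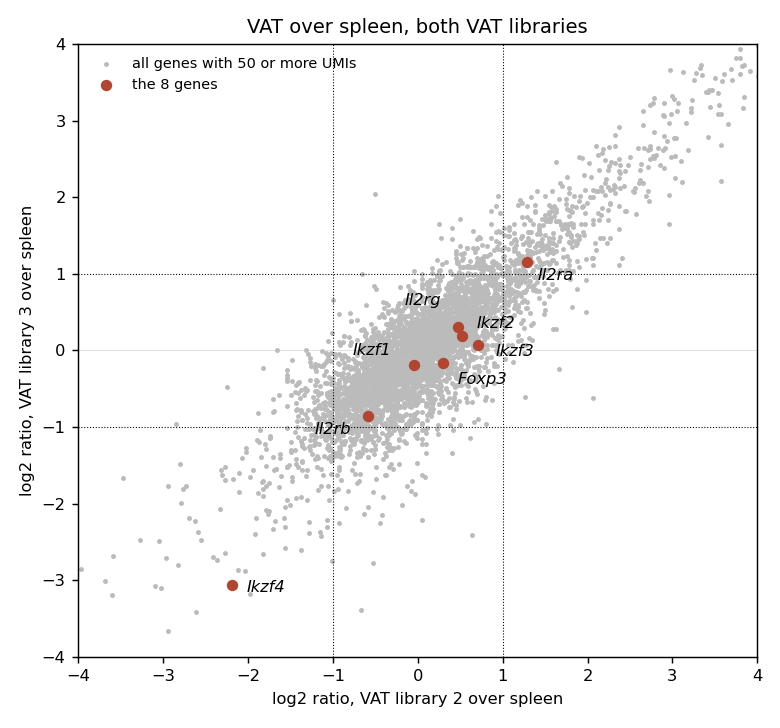
log2 ratio over spleen in VAT library 2 (horizontal) and VAT library 3 (vertical) for all 4635 genes with 50 or more UMIs (grey; 2.18% of them lie outside the axes) and for the 8 members (red; Ikzf4 has 39 UMIs); dotted lines mark 2-fold. Il2ra is the 1 eligible member past 2-fold in both libraries, Il2rb and Ikzf4 lie below 0 in both beyond counting error, Ikzf1 is slightly below 0 in both, and the remaining members lie in the bulk of the genes.

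Ratios between the chains need no library total and gave a clearer separation. Il2ra made up 50.4% and 51.4% of the receptor UMIs in the VAT libraries and 32.5% in spleen, with exact 95% intervals of 47.5 to 53.2, 48.4 to 54.5 and 29.2 to 35.8. Il2rb made up 9.43% and 8.71% in VAT and 22.2% in spleen, and Il2rg 40.2% and 39.9% in VAT and 45.3% in spleen. The VAT libraries were nearly alike in all 3 shares. Both differed from spleen beyond counting error in Il2ra and Il2rb, but for Il2rg the intervals overlapped, at 37.4 to 43.01 and 36.9 to 42.8 in VAT and 41.8 to 48.8 in spleen. There were 5.34 and 5.90 Il2ra UMIs for each Il2rb UMI in VAT and 1.46 in spleen, so this ratio was higher in VAT, by 3.66-fold in library 2 (2.77 to 4.82) and 4.04-fold in library 3 (3.02 to 5.40). Against the gamma chain, Il2ra was 1.75-fold and 1.80-fold higher in VAT, and Il2rb was 2.09-fold and 2.24-fold lower. Against Foxp3, Il2ra was higher in VAT by 1.98-fold (1.58 to 2.50) in library 2 and by 2.50-fold (1.96 to 3.18) in library 3.

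The share of cells with Il2ra was higher in VAT and that with Il2rb lower, as with the levels. After thinning, an Il2ra UMI was found in 44.8% (39.4 to 50.4) and 40.1% (34.7 to 45.8) of VAT cells and in 21.6% (17.5 to 26.1) of spleen cells, and before thinning in 63.03% and 56.7% of VAT cells and 30.9% of spleen cells. For Il2rb the thinned shares were 15.2%, 12.1% and 19.5%, and the unthinned ones 22.7% and 22.3% in VAT and 30.9% in spleen. The Il2rb intervals of VAT library 2 (11.5 to 19.5) and spleen (15.6 to 23.8) overlapped. For Il2rg the thinned shares were 43.6%, 37.6% and 34.9%, close enough for the intervals of all 3 libraries to overlap. Ikzf1 was seen in 6.67%, 6.05% and 5.33% of thinned cells, and Ikzf3 in 7.27%, 4.46% and 4%.

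**Figure D3:**
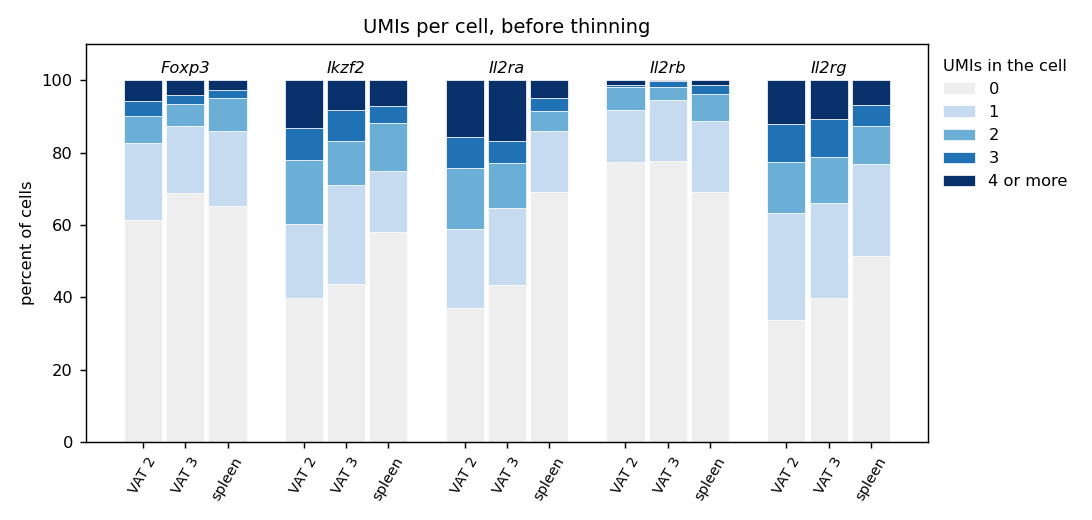
Percent of cells with 0, 1, 2, 3 or at least 4 UMIs, before thinning, for the 5 members with most UMIs in VAT library 2, VAT library 3 and spleen. Il2ra shows the widest change: 15.8% and 16.9% of VAT cells held 4 or more UMIs, and 5.07% of spleen cells did.

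UMIs of several members gathered in fewer cells than chance placement by cell depth would give. For Foxp3, the cells with a UMI were 0.72, 0.71 and 0.79 times the number expected from its total count in VAT library 2, VAT library 3 and spleen, where the median of all genes with 100 to 1000 UMIs was 0.81, 0.79 and 0.80. Il2ra stood at 0.77 and 0.70 in VAT and 0.63 in spleen. Only 10.8% of genes in that range lay below the spleen value of Il2ra, so its UMIs were among the more clumped there. Ikzf1 was near even placement, at 0.91, 0.97 and 1.05, although its count lies below that range. The medians below 1 show that clumping was common among genes in that range of counts.

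Il2ra also varied with the depth of the cell. When the cells of each library were split into 3 equal classes of total UMIs, the share with an Il2ra UMI in the shallowest, middle and deepest class was 54.5%, 57.3% and 77.3% in VAT library 2. It was 39.05%, 59.05% and 72.1% in VAT library 3 and 17.6%, 36% and 39.2% in spleen. In CPM, which corrects for depth, Il2ra was 1010, 911 and 1285 in VAT library 2, 647, 941 and 1249 in VAT library 3, and 295.2, 599.6 and 435.2 in spleen. Each VAT class was above the spleen class of the same rank. Ikzf2 ran the other way, with 1079, 934 and 755 CPM in VAT library 2, 825, 799.9 and 574.3 in VAT library 3, and 863, 560.4 and 523.7 in spleen. The lowest CPM of Ikzf2 was thus found in the deepest cells of all 3 libraries.

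In VAT, the CPM of Il2ra was higher in cells with a Foxp3 UMI than in cells without one. The share of cells with an Il2ra UMI did not follow in both VAT libraries. After thinning it was 42.5% with a Foxp3 UMI and 45.7% without one in VAT library 2, and 51.9% and 37.7% in VAT library 3. In cells with a Foxp3 UMI after thinning (87, 54 and 91 cells), Il2ra was at 1318 and 1308 CPM in VAT and 463.97 CPM in spleen. In cells with none it was at 1027 and 950.02 CPM in VAT and 450.01 CPM in spleen. The counting intervals of the 2 kinds of cell did not overlap in VAT library 2 (1139.5 to 1517 with a Foxp3 UMI, 931 to 1130 without) or in VAT library 3 (1087 to 1561 and 863 to 1044), while in spleen they did. The Il2ra UMIs were clumped in cells, so these intervals understate the error. Il2ra was higher in VAT than in spleen in both kinds of cell. Ikzf2 was at 811 and 798 CPM in VAT cells with a Foxp3 UMI and 628.6 CPM in such spleen cells, and at 914 and 684 CPM in VAT and 611.4 CPM in spleen in the rest. Il2rb was at 209.5 and 159.5 CPM in VAT and 284.4 CPM in spleen in cells with a Foxp3 UMI. Ikzf4 and Foxp3 were seen together in 0 cells of either VAT library, where 0.791 and 0.344 were expected, and in 5 spleen cells, where 3.64 were expected.

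Most VAT cells carried Klrg1, a surface receptor of differentiated effector Tregs, and few spleen cells did. After thinning, a Klrg1 UMI was seen in 73.6% and 79.3% of VAT cells and in 2.67% of spleen cells. In VAT library 2, Il2ra was at 1209 CPM (1105 to 1320) in cells with Klrg1 and 802 CPM (662 to 963) in cells without it. In VAT library 3 it was at 1011 CPM in cells with Klrg1 and 1013 CPM in cells without it, so the difference of VAT library 2 did not recur. Ikzf2 was at 928 and 750 CPM in VAT cells with Klrg1 and at 767 and 528.1 CPM in VAT cells without it. That order was the same in both VAT libraries. VAT cells without a Klrg1 UMI still held more Il2ra than spleen cells without one (433.1 CPM).

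Co-detection of the members was near what independent detection gives. Of the 28 pairs, 13 had at least 5 cells expected with both genes in each library. In none of these was the ratio of observed to expected cells 1.5 or more, or 0.67 or less, in all 3 libraries. In the thinned cells, no pair exceeded 1 in all 3 libraries. There, 2 pairs, Foxp3 with Il2rg and Ikzf1 with Ikzf2, were below 1 in all 3. These ratios ranged from 0.19, for Ikzf3 with Il2rg in VAT library 3 (1 cell observed, 5.26 expected), to 1.30. The side of 1 depended on the thinning. Without it, Foxp3 with Il2ra, Ikzf2 with Il2ra, Ikzf2 with Il2rb and Il2ra with Il2rb exceeded 1 in all 3 libraries. Foxp3 with Il2rg and Ikzf1 with Ikzf2 then reached 1.02 and 1.03 in VAT library 3. Over the settings run, other thinning seeds included, the spleen ratio of Ikzf1 with Ikzf2 ran from 0.17 to 1.27. In the thinned cells, the median ratio over all genes that could be paired with a member was between 0.988 and 1.02. There, 0 genes reached 1.5 in all 3 libraries with any member. There were 4 genes at 0.67 or less in all 3, named after their values were seen: Taldo1 with Foxp3, Gnai2 with Ikzf1, Pou2f2 with Il2ra and Ddx21 with Il2rg.

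Foxp3 and Il2ra were found together in 37 cells of VAT library 2 (39.02 expected), 28 of VAT library 3 (21.7 expected) and 21 of spleen (19.7 expected). The intervals of all 3 ratios included 1. Foxp3 and Ikzf2 were found together in 38, 23 and 29 cells, where 40.1, 20.5 and 27.9 were expected. Among the receptor chains, Il2ra and Il2rg met in 68, 42 and 27 cells (64.6, 47.4 and 28.3 expected), in both VAT libraries the pair of chains with most shared cells. Il2ra and Il2rb met in 26, 14 and 17 cells (22.4, 15.2 and 15.8 expected). Il2rb and Il2rg met in 22, 13 and 29 cells (21.8, 14.3 and 25.5 expected).

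All 3 chains of the receptor were seen in the same thinned cell in 12 cells of VAT library 2, 3 of VAT library 3 and 6 of spleen, where independent detection gave 9.79, 5.73 and 5.51. None of the 3 was seen in 27.9% and 31.2% of VAT cells and 41.9% of spleen cells. With full depth, all 3 were seen in 39 and 26 VAT cells and 27 spleen cells, and none in 36 and 39 VAT cells and 97 spleen cells. The lower number of VAT cells with none goes with the wider detection of Il2ra there.

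**Figure D4:**
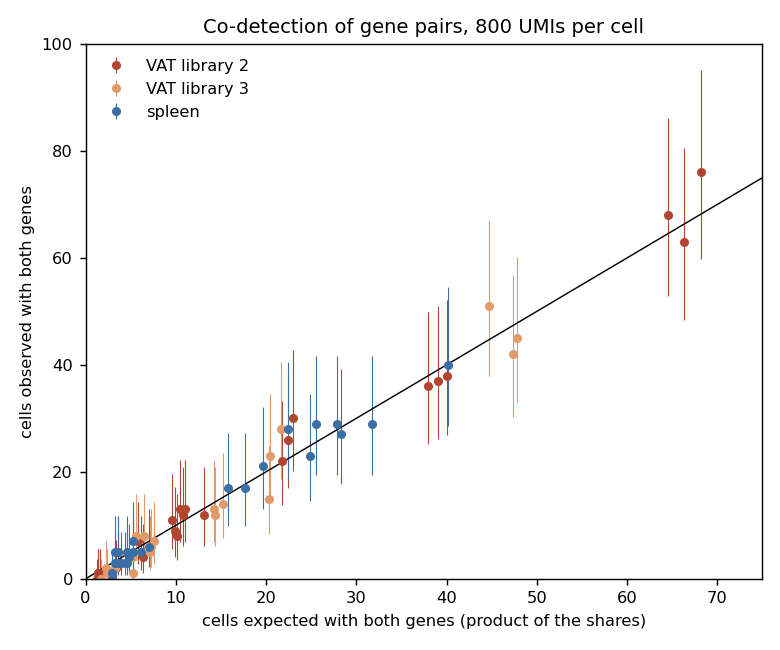
Cells in which both genes of a pair were found, against the number expected from the product of their shares, at 800 UMIs per cell, for pairs of the 8 members with at least 1 cell expected; bars are exact Poisson 95% intervals and the line marks equality. Points of VAT library 2, VAT library 3 and spleen lie along the line.

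No gene of the table followed a member across cells closely enough to be named. Likeness was the smallest of the 3 Spearman correlations over thinned cells within the libraries, over 2634 genes with 100 or more UMIs, and a value of 0.15 or more was required. The largest value reached was 0.13, with Ikzf2. In counts this sparse a correlation of that size is no finding.

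Around the receptor, the kinase gene Jak1 was close between tissues, while several genes known to respond to IL-2 were not. Jak1, the kinase bound to the beta chain, had 784 and 903.8 CPM in VAT and 835 CPM in spleen, and Jak3, bound to the gamma chain, had 15 and 20 UMIs in VAT and 21 in spleen. Stat5a had 12 and 9 UMIs in VAT and 17 in spleen, and Stat5b 31 and 28 in VAT and 38 in spleen. These 4 genes showed no tissue difference beyond counting error. For Jak3, Stat5a and Stat5b the counts were too low to call the tissues alike. Their intervals over spleen reached down to 0.353 (Jak3, VAT library 2), 0.217 (Stat5a, VAT library 3) and 0.455 (Stat5b, VAT library 3). Of 24 listed genes of IL-2 signalling, 22 were eligible, of which 4 stood 2-fold or more above spleen in each VAT library and 4 stood as far below it (18.2% each way, against 10.3% above and 4.40% below of all eligible genes), with median log2 ratios of 0.09 and −0.08 over the list.

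The 4 higher genes were Cish, Socs2, Pim1 and Myc. Cish, a STAT5-induced inhibitor of cytokine signalling, had 597.02 and 519.3 CPM in VAT and 120.3 CPM in spleen, a VAT level 4.96 times (3.82 to 6.53) and 4.32 times (3.31 to 5.70) that of spleen. Socs2, of the same inhibitor family, had 206.8 and 198.6 CPM in VAT and 67.99 CPM in spleen. Pim1, a survival kinase, had 2708 and 1999 CPM in VAT and 460.2 CPM in spleen, 5.88-fold and 4.34-fold higher. Myc, a growth regulator, had 77 and 65 UMIs in VAT and 22 in spleen. In all 4, both VAT libraries lay well above spleen. The lower genes included Bcl2, Socs3 and Ptpn6. Bcl2, an anti-apoptotic protein, had 14.4 and 14.6 CPM in VAT and 247.6 CPM in spleen, which is lower by 17.2-fold in VAT library 2 (8.50 to 40.6) and by 16.98-fold in VAT library 3 (8.39 to 40.1). Socs3 had 16 and 11 UMIs in VAT and 48 in spleen, and the phosphatase gene Ptpn6 26 and 24 in VAT and 70 in spleen.

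A list of receptors and cytokines that work with the gamma chain, or that are related to them, was mostly sparse, with 4 of 13 genes eligible. Il7r, the alpha chain of the IL-7 receptor, was the 1 gene past 2-fold, with 375.8 and 348.1 CPM in VAT and 142.95 CPM in spleen. Its VAT levels were 2.63 times (2.03 to 3.44) and 2.43 times (1.87 to 3.19) that of spleen. Il4ra had 188.8 and 112.98 CPM in VAT and 76.7 CPM in spleen, and Crlf2, the receptor of the IL-7-like cytokine TSLP, which pairs with Il7r and not with the gamma chain, 203.2 and 174.9 CPM in VAT and 174.3 CPM in spleen. Il9r, named after its values were seen and below the count limit, had 20 and 14 UMIs in VAT and 0 in spleen. Il2 itself had 0 and 1 UMIs in VAT and 0 in spleen, and Il4, Il9 and Il15 were at 0 in all 3 libraries. Il15ra, which presents IL-15 to the beta and gamma chains, had 3 and 4 UMIs in VAT and 2 in spleen.

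Of 30 listed regulators and partners of Foxp3, 22 were eligible. Of these, 4 stood 2-fold or more above spleen in each VAT library and 3 stood as far below it, or 18.2% and 13.6% against 10.3% and 4.40% of all eligible genes, with list medians of 0.13 and 0.02 on the log2 scale. Nr4a1, an immediate early gene of T cell receptor signalling, had 4413 and 3331 CPM in VAT and 132.5 CPM in spleen, a VAT level 33.3 times (26.5 to 42.4) and 25.1 times (20.0 to 32.1) that of spleen. For such a gene, too, tissue and enzymatic digestion cannot be told apart. Gata3, a transcription factor of tissue Tregs, had 1403 and 1053 CPM in VAT and 230.1 CPM in spleen. Irf4, a factor of effector Tregs, had 75 and 61 UMIs in VAT and 10 in spleen, and the DNA methyltransferase gene Dnmt1 34 and 25 in VAT and 9 in spleen. The lower genes were the forkhead genes Foxo1 and Foxp1 and the chromatin organizer Satb1. Foxo1 had 145.7 and 94.8 CPM in VAT and 435.8 CPM in spleen, and Foxp1 143.9 and 156.7 CPM in VAT and 317.3 CPM in spleen. Satb1 had 11 and 6 UMIs in VAT and 72 in spleen. Ets1, which binds the Foxp3 locus, was the most abundant of the list after Nr4a1 in the 3 libraries together, with 900.9 and 1033 CPM in VAT and 1058 CPM in spleen.

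The listed partners of Ikaros factors were mostly subunits of the NuRD and Sin3 repressor complexes. Of the 15 eligible ones, 0 were past the 2-fold limit in either direction, against 10.3% above and 4.40% below of all eligible genes. Their medians were 0.15 and −0.18. Below the count limit, Ctbp2 had 18 and 21 UMIs in VAT and 1 in spleen, and Gatad2b 6 and 2 in VAT and 16 in spleen. Both were named after their values were seen. Chd4, the NuRD remodeller, had 361.4 and 280.6 CPM in VAT and 299.8 CPM in spleen. Rbbp4 had 246.4 and 185.9 CPM in VAT and 244.1 CPM in spleen, and Mbd2 242.8 and 280.6 CPM in VAT and 176.1 CPM in spleen. Ikzf5, the remaining Ikaros-family gene, had 9 and 10 UMIs in VAT and 5 in spleen.

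Surface molecules of Tregs differed in both directions. Of 11 eligible genes, 1 stood 2-fold or more above spleen in each VAT library and 4 stood as far below it, or 9.09% and 36.4% against 10.3% and 4.40% of all eligible genes, with list medians of −0.36 and −0.22 on the log2 scale. Ctla4, the inhibitory receptor of CD80 and CD86, had 631.2 and 561.3 CPM in VAT and 130.7 CPM in spleen, a VAT level 4.83 times (3.75 to 6.28) and 4.29 times (3.33 to 5.602) that of spleen. Tnfrsf4 (OX40) had 708.5 and 677.9 CPM in VAT and 339.9 CPM in spleen. Capg, an actin-capping protein listed here for its use as a Treg signature gene, was 1.95-fold and 2.17-fold higher in VAT, so both Tnfrsf4 and Capg were past 2-fold in 1 of the VAT libraries. Izumo1r, the folate receptor 4 of resting Tregs, had 66.5 and 112.98 CPM in VAT and 1196 CPM in spleen, which is lower by 17.97-fold in VAT library 2 (12.9 to 25.7) and by 10.6-fold in VAT library 3 (8.15 to 13.96). Nt5e (CD73) had 12 and 7 UMIs in VAT and 99 in spleen, and Lrrc32 (GARP) 2 and 1 in VAT and 52 in spleen. Nrp1 had 136.7 and 112.98 CPM in VAT and 294.6 CPM in spleen.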

How the data were processed

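The data were a deposited count table, in which the authors gave unnormalized UMI counts with 1 column per cell and 1 row per gene symbol; every column matched 1 sample by title. Per the labels' protocols, mRNA was captured by oligo dT in droplets and amplified by in vitro transcription. Per the submitters' processing notes, TopHat2, SAMtools and mm10 were used. The annotation for counting, the cell filter and doublet removal are not given in the sources used here, and no doublet caller was run. A few listed genes are not reported here.

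The 8 members and the gene lists were chosen with earlier results of these data known. The UMIs of a library's cells were added up per gene and scaled by the library total (CPM). Members and, in each list, up to 6 genes past the size rule and the 3 with most UMIs were named, with further genes named after their values were seen: Jak3, Stat5a, Stat5b, Socs3, Ptpn6, Foxp1, Ikzf5 and the low receptor and cytokine genes. A call needed 50 UMIs in the libraries together and a 2-fold difference from spleen in the same direction in both VAT libraries; log2 ratios add 0.5 to each count. Count intervals are exact Poisson, ratio intervals exact conditional binomial and share intervals exact Clopper-Pearson, all at 95%; the floor is 3 counts per library. UMIs tag 3′ ends, so counts were not divided by length, and capture can differ between genes. Shares and co-detection used cells thinned to 800 UMIs without replacement; no cell had fewer. Computation used Python 3.11.15, numpy 2.4.6, scipy 1.17.1 and pandas 2.3.3; edgeR 4.0.16 gave TMM factors as an alternative. The ratio, interval, thinning and co-detection code was tested on simulated data. Replicates could not be compared as animals, since the labels name none.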

Additional observations from a re-analysis of the deposited data

How the results depend on the processing

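No paired analysis was possible because no label ties a library to an animal or to another library. The count of members 2-fold or more above spleen in both VAT libraries was 1 and became 0 with totals that exclude the 83 ribosomal protein genes. The count of members 2-fold or more below spleen was 0 and became 1 (Ikzf4) with a minimum of 20 UMIs, and likewise 1 with no filter on low counts, since Ikzf4 then enters. Leaving out either VAT library gave 1 higher and 0 lower. The other alternatives changed neither count: median-of-ratios and TMM factors, equal weight per cell, thinning, and leaving out cells by depth, by marker, by shared barcode, by T cell receptor list or by Foxp3 UMI, as well as cells with an erythroid UMI and the top cell of each member, which were chosen after seeing the data. Markers of group 2 innate lymphoid cells were not among those used to leave out cells, so their removal was not tested.

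Of the recomputed log2 ratios, 9 fell outside the counting interval of the main setting. The counting error of the recomputed values themselves was not computed. In cells with a Foxp3 UMI alone the log2 ratio of Il2ra was 1.72 in VAT library 2 and 1.56 in VAT library 3. That of Ikzf3 in VAT library 2 was −0.77 in place of 0.70, but it rests on few cells. Of the cells with a Foxp3 UMI, 8 in VAT library 2 and 9 in spleen held an Ikzf3 UMI. Over the settings run, the log2 ratio of Il2rb in VAT library 2 ran from −0.81 to −0.16, against −0.58 in the main setting. Of all eligible genes, 10.3% were called higher and 4.40% lower. Of the genes that each alternative left eligible, the calls were 10.5% and 6.45% at 20 UMIs, 6.19% and 8.08% with no filter, 10.9% and 3.72% after thinning, and 13.003% and 4.08% in cells with a Foxp3 UMI. Shares of cells depended on depth: 40 recomputed shares moved beyond their interval, mostly at 500 UMIs per cell or without thinning. Depth limits Ikzf1, Ikzf3 and Ikzf4 most, and with 1 spleen library no spread between animals is known.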
